A study of Mus musculus with 217 samples.

Results

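Single metaphase II oocytes of Tet2 knockout mice were compared between 10 and 2 months of age. The 30 oocytes, 15 of each age, were chosen by the names of their columns in the deposited count table. They are part of 171 single oocytes of the C57BL6/129 background and of 217 samples in the whole series. The 2-month knockout mice (young) had no treatment period. The 10-month knockout mice (old) drank water with DMSO, the solvent of resveratrol, from 2 months of age, so age and solvent cannot be told apart. Other groups are used beside them. These are 20 knockout oocytes of 6 months with solvent, 15 knockout oocytes of 10 months with the plant polyphenol resveratrol (30 mg per L), 18 wild-type oocytes of 2 months without treatment and 20 wild-type oocytes of 10 months with solvent. The fits also hold 20 wild-type oocytes of 6 months with solvent and 14 with resveratrol, of which 1 is left out of the fit of sets below. The fits further hold 20 knockout oocytes of 6 months and 14 wild-type oocytes of 10 months, both with resveratrol. A genotype tag of the young wild-type oocytes says knockout, against their titles, and the titles were followed. All mice were superovulated with 2 gonadotropins (PMSG, then hCG), cumulus cells were removed with hyaluronidase, and each oocyte was made into its own full-length cDNA library with Smart-seq2. No animal is named for any oocyte, and no source used here states which part of Tet2 was removed.

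Tet2 encodes a dioxygenase that oxidises 5-methylcytosine in DNA, a step toward the loss of DNA methylation. The related enzymes Tet1 and Tet3 share this activity, and Tet3 is the abundant one in oocytes and zygotes. A metaphase II oocyte is transcriptionally silent. Its messenger RNAs were made during growth, are stored with short poly(A) tails and are translated or degraded in a set order during maturation, so a level in such a cell reflects synthesis, storage and decay alike. Libraries primed on poly(A) also respond to tail length. Oocyte numbers and quality decline with maternal age in mice as in other mammals.

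Tet2 itself was low in every group. Its level was 1.01 CPM (read counts relative to the library total, scaled for library composition by TMM) in the summed young knockout oocytes, 1.4 in the old ones, 3.1 in young wild type and 2.6 in old wild type. Without the position of the deletion, a count over the whole gene does not check the genotype. Tet1 was at 2.41 CPM in young and 1.85 CPM in old knockout oocytes, and Tet3 at 649 and 717 CPM. None of the 3 passed any test of age.

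The oocyte libraries held 4331050 to 8775154 counts in the young group and 4297459 to 4473438 in the old group. The deepest were the 5 oocytes of the first young set, at 4903831 to 8775154 counts. Thinned to 4297459 counts each, young oocytes had 16412 to 18752 detected genes and old oocytes 16406 to 17755, so the groups overlapped. All 17 markers of oocytes were present in both groups, with summed levels of 17600 to 28300 CPM in young and 18800 to 31100 CPM in old oocytes. Of 26 markers of granulosa and cumulus cells, 3 exceeded 1 CPM (Serpine2, Cyp19a1 and Nr5a2), while Fshr, Amh, Foxl2, Inhbb, Fst, Hsd17b1, Pgr and Ereg had no count in either group. The sums of these markers were 248 CPM at the lowest, 1170 at the median and 1480 at the highest in young oocytes, and 1100, 1510 and 1950 CPM in old ones. Cyp19a1 reached at most 55.2 CPM and Nr5a2 13.25 CPM in a young oocyte, and 79.15 and 16.53 CPM in an old one. Serpine2 therefore made up most of the median sums. The 6 oviduct markers, of which 1 exceeded 1 CPM in each group, summed to 0.894 to 25.8 CPM in young and 1.79 to 29.3 CPM in old oocytes. The 5 oocytes of the first young set were at 13.4 to 25.8 CPM and the 6 of the second old set at 20.9 to 29.3 CPM. The part of these markers in the results was not tested. The 17 leukocyte markers summed to 9.66 to 29.2 CPM in young and 9.54 to 177 CPM in old oocytes. Of the old oocytes, 4 exceeded the young range, at 58.8, 106, 117 and 177 CPM. A young oocyte of the first set also stood apart. Its median correlation with the other oocytes was 0.727, against 0.845 or more for each of the others, and 10.1% of 1769 abundant genes lay over 4-fold from the young median, against 2.26% or less elsewhere. In it Mos, the kinase that holds the metaphase arrest, was at 9.81 CPM against a young median of 958 CPM, and Plat, tissue plasminogen activator, was at 45.6 against 3171 CPM. The counts of genes called by size and over the sets are repeated below without these oocytes.

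Age differences were measured in 3 ways. By size, a gene was called where the summed oocytes and the median oocyte both differed at least 2-fold in the same direction, with a level of at least 10 CPM in the higher of the groups. This called 140 genes higher in old oocytes (1.92% of 7292 genes) and 104 lower (1.43%), 244 in all (3.35%), and it has no test, since each group is a single sum. CPM is a share of a library, so the total RNA of an oocyte is not measured. Without the young oocyte that stood apart the counts were 144 higher and 142 lower, and without the 4 old oocytes with the highest leukocyte marker sums 132 and 96. The test set for the comparison, edgeR's quasi-likelihood test over 9 group sums with 2 residual degrees of freedom, called 0 of 22163 genes at an adjusted p of 0.05, with 1852 (8.36%) at an unadjusted p under 0.05. The spread in this fit is the disagreement of the resveratrol effects in its 3 pairs of control and treated sums. Neither compared group has a replicate in it, so its p-values do not measure spread between oocytes or animals. DESeq2 on the same sums called 172. In simulated counts, drawn with the same spread for every gene, this edgeR fit found 32% of genes changed 4-fold and 0% of those changed 2-fold.

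The column names also number the oocytes in sets, 2 young sets of 5 and 10 oocytes and 3 old sets of 5, 6 and 4. What a set is (a mouse, a day or a plate) is stated in no source used here. A fit over the 26 sets of all 10 groups was added after these names were seen, each set entering as a single sum. It leaves out 1 wild-type resveratrol oocyte of 6 months, whose column name gives no set in the common form. Among the sets are 4 of young wild type, the fourth a single oocyte, and 2 of old wild type. The fit called 156 genes higher (0.792% of 19706) and 162 lower (0.822%) in old knockout oocytes. In simulated counts, drawn with the same spread for every gene, it found 95% of genes changed 4-fold and 9% of those changed 2-fold. These shares do not give the power for genes whose sets differ more. "Rose", "fell" and "adjusted p" refer to this edgeR test below, and its p-values measure only the spread between sets, which may be technical. Oocytes of the same set resembled each other more than oocytes of another set of their group, with median correlations of 0.957 against 0.930 in the old group and 0.944 against 0.896 in the young. Without the first young set 24 genes were called in place of 318, without the second old set 46 and without the third old set 97. Without the young oocyte that stood apart 197 rose and 244 fell, and without the 4 leukocyte-marked oocytes 159 and 174.

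Of the rises named, those of Rnf187, Kctd5, Lamp1 and Grtp1 held best across the alternatives of the fit of sets. Rnf187 (chromosome 11, 58932288-58938916, GRCm38) encodes a RING-type ubiquitin ligase. Its level in single young oocytes was 5.73 CPM at the lowest, 9.80 at the median and 55.6 at the highest, and in old oocytes 10.6, 71.2 and 159 CPM. The ranges overlapped, with 5 old oocytes at or below the highest young value. Rnf187 rose by 2.38 ± 0.259 (SE) on the log2 scale, adjusted p = 6.54e-05. Kctd5 (chromosome 17, 24047734-24073485), a substrate adaptor of cullin-3 ubiquitin ligases, was at 38.3, 92.1 and 195 CPM in young and 167, 366 and 704 CPM in old oocytes, lowest, median and highest. The ranges met between 167 and 195 CPM, where 3 young and 2 old oocytes lay, and the rise was 1.89 ± 0.298, adjusted p = 0.00256.

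Lamp1 (chromosome 8, 13159161-13175338), a major glycoprotein of the lysosomal membrane, had the third largest rise by size. Young oocytes held 7.56, 50.4 and 66.5 CPM and old oocytes 39.8, 332 and 616 CPM, lowest, median and highest. Of the 15 old oocytes, 12 exceeded every young one, and 3 (39.8, 42.5 and 66.1 CPM) lay inside the young range. The summed level was 8.70-fold higher in old oocytes. The young sets were at 16.3 and 53.5 CPM, and the log2 ratio of the sums was 2.59 without the first and 4.29 without the second. The set test gave 3.18 ± 0.405, adjusted p = 0.000278. Grtp1, a TBC-domain gene that shares 249 exon bases with Lamp1 on the opposite strand, moved with it (12.2 to 102 CPM, adjusted p = 0.000193). Reads within those 249 bases cannot be assigned to either gene here, and a strand setting of the counting is not given. The part of the shared bases in the counts of the pair was not tested. The correlation of Grtp1 with Lamp1 was 0.998 over the 15 old oocytes and 0.98 over the 15 young ones.

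Myo10 (chromosome 15, 25622525-25813673), an unconventional myosin of filopodial tips, separated the ages completely. Its values were 2.00, 4.47 and 6.68 CPM in young and 27.9, 42.6 and 63.6 CPM in old oocytes. The summed level was 9.65-fold higher in old oocytes, the rise was 3.23 ± 0.638 (adjusted p = 0.0148), and it was the only gene called when the 5 knockout sets were fitted alone. Parp12 (chromosome 6, 39086410-39118349), a mono-ADP-ribosyltransferase, did not overlap either. It was at 197, 296 and 455 CPM in young and 483, 1311 and 2739 CPM in old oocytes, and rose by 2.13 ± 0.342, adjusted p = 0.00283. Of 7292 genes, 11 (0.151%) were higher in every old oocyte than in any young one and 14 (0.192%) were lower. The other non-overlapping rises named by rule were Haus8, an augmin subunit of the spindle (5.42 to 23.8 CPM in the sums), Ublcp1, a phosphatase that acts on the proteasome (7.69 to 33.8 CPM), Psme3, a proteasome activator (61.6 to 145 CPM), and Dnajc13, an endosomal co-chaperone (27.7 to 60.1 CPM). All 4 passed the set test, with adjusted p between 0.0205 and 0.0497.

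The promoters of 3 rising genes and of the named fall with the lowest adjusted p are printed as examples of CpG content among genes that moved. They are RefSeq sequences on GRCm38.p6, 250 bases before to 50 after the annotated start, 5′ to 3′ on the gene's strand, with CpG dinucleotides in capitals. Myo10 (chr15:25622300-25622599, plus strand) holds 23 CpG, Lamp1 (chr8:13158911-13159210, plus strand) 19, Parp12 (chr6:39118300-39118599, minus strand) 46 and Srebf1 (chr11:60222532-60222831, minus strand) 17.
Myo10: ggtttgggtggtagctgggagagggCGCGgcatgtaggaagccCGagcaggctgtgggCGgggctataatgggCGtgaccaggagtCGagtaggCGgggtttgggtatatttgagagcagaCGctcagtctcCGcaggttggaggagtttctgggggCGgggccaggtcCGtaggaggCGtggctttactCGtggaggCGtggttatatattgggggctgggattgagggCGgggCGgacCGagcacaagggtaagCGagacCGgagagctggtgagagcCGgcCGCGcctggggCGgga
Lamp1: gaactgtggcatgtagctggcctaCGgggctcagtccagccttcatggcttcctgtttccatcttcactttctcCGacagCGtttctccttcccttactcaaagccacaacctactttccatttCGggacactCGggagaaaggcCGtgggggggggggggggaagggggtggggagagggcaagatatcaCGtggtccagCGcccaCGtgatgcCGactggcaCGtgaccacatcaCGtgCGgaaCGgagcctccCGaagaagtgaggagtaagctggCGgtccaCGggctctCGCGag
Parp12: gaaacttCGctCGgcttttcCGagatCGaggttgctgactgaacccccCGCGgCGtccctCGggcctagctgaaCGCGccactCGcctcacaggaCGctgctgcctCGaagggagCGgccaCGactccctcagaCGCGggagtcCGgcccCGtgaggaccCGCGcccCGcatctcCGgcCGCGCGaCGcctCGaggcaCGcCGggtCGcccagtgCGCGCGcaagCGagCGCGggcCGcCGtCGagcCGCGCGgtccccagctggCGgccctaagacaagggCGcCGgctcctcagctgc
Srebf1: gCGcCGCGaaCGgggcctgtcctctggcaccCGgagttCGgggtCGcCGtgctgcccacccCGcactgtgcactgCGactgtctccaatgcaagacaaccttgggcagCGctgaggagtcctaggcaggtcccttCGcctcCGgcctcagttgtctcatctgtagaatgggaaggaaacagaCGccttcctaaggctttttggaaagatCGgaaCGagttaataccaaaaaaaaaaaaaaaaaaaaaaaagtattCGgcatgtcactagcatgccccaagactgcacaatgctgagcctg
Numbered gene models and clone names were left out of the promoter counts. Over the other genes at 10 CPM or more, the median promoter held 30 CpG among genes that rose (93 of 114 matched) and 22 among genes that fell (94 of 116), beside 22 among all such genes (5164 of 6320). Genes that rose and fell in wild type had medians of 23 (590 of 697) and 19 (364 of 457). The motif CACGTG, read on both strands, was in 8.6% of promoters of rising genes, 11.7% of those of falling genes and 10.4% of all, and it is present in the Lamp1 promoter above. The motif TGANNNNGC was in 45.2%, 48.9% and 44.3%. These counts describe letters in a window. Methylation was not measured in these samples.

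**Figure D1:**
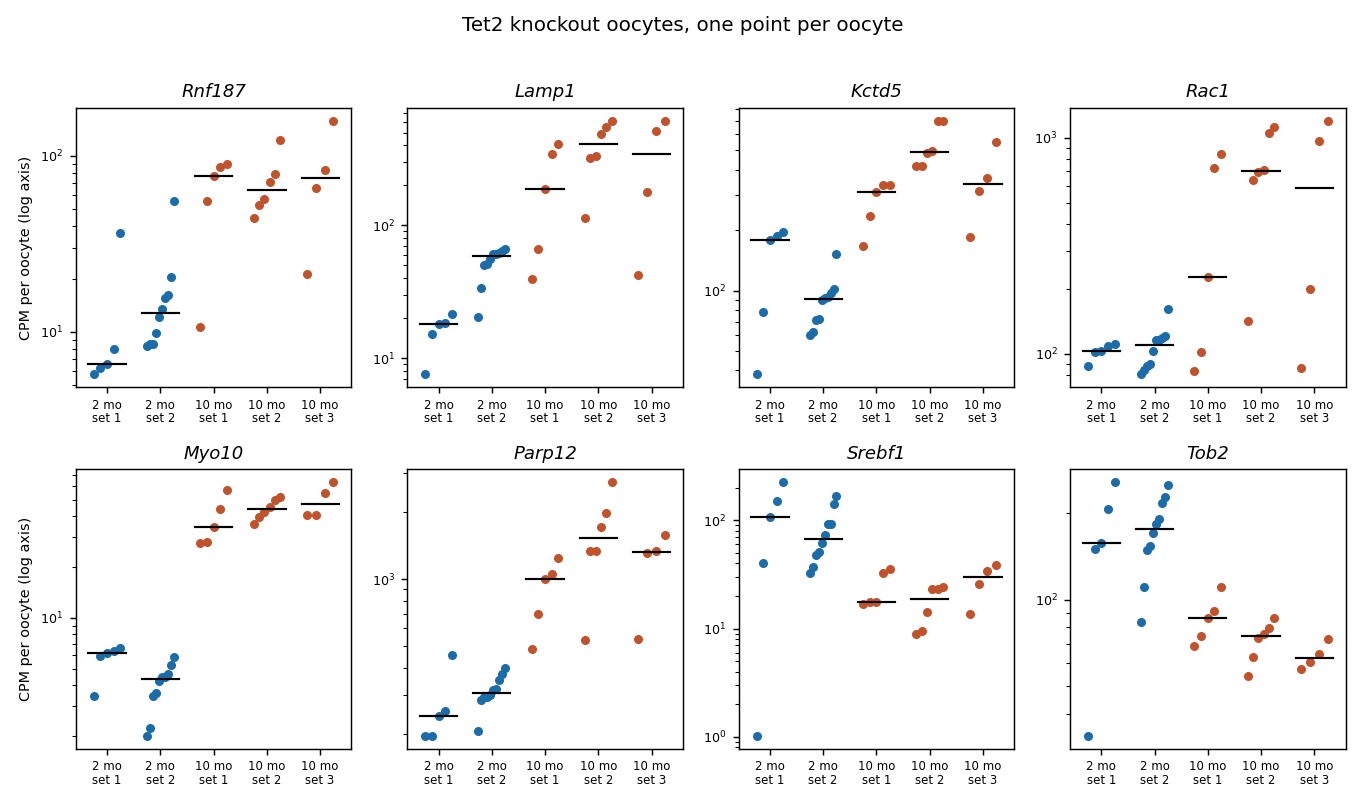
CPM of 8 genes in each of the 30 oocytes, on a log axis, by numbered set; points are oocytes and bars are set medians. Rnf187, Lamp1, Kctd5, Rac1, Myo10 and Parp12 are higher in the 3 old sets, with several low oocytes among them for Lamp1 and Rac1, and Srebf1 and Tob2 are lower.

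Rac1, a GTPase that organises actin, was at 80.3, 103 and 161 CPM in young and 83.1, 694 and 1204 CPM in old oocytes. The old oocytes fell into a low and a high range, with 4 between 83.1 and 141 CPM, 2 at 199 and 226 CPM and the other 9 at 637 CPM or more. Rac1 rose by 2.47 on the log2 scale (adjusted p = 0.00185), and its exons share 2309 bases with Daglb on the opposite strand. Limk1, the kinase that inactivates cofilin, rose from 5.69 to 16.4 CPM. Zfand5, which binds ubiquitin and the proteasome, rose from 75.8 to 512 CPM (adjusted p = 0.00185), and Akirin2, which carries proteasomes into the nucleus, from 75.4 to 264 CPM (adjusted p = 0.00185). Gclm, the modifier subunit of the enzyme that limits glutathione synthesis, was at 2.25, 4.78 and 16.9 CPM in young and 4.74, 20.5 and 103 CPM in old oocytes (adjusted p = 0.0223). Srsf2, a splicing factor, rose from 6.70 to 45.1 CPM, Tmed7, a cargo receptor of the early secretory pathway, from 2.74 to 16.2 CPM, and Clptm1l from 35.7 to 199 CPM. Atp2a2, the calcium pump of the endoplasmic reticulum, rose from 77.8 to 165 CPM, and no old oocyte overlapped a young one.

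Noct, a phosphatase of the nocturnin family, rose from 183 to 839 CPM, Zar1, a maternal-effect protein that binds stored mRNA, from 390 to 828 CPM, and Nanos1, a translational repressor, from 13.7 to 40.8 CPM. Ythdc1, the nuclear reader of N6-methyladenosine, rose from 25.6 to 85.5 CPM. Tob2, which recruits the CCR4-NOT deadenylase, fell. Young oocytes held 33.5, 170 and 256 CPM of Tob2 and old oocytes 54.4, 73.6 and 111 CPM, and the fall was 1.21 ± 0.208 on the log2 scale, adjusted p = 0.00521. The young oocyte at 33.5 CPM is the one that stood apart. Pabpc1l, the poly(A)-binding protein of oocytes, fell from 78.0 to 28.6 CPM (adjusted p = 0.0133). Cnot6, a deadenylase subunit, rose from 17 to 28.9 CPM (adjusted p = 0.0381).

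Nsmce3 and Nsmce4a, subunits of the Smc5/6 complex, rose from 79.8 to 192 and from 50.0 to 186 CPM. Topbp1, an activator of the checkpoint kinase ATR, rose from 9.36 to 30.7 CPM, Tdp2, which removes trapped topoisomerase II, from 16.6 to 43.4 CPM, and Ppm1d, a phosphatase of the damage response, from 14.8 to 44.0 CPM. Smarca5, the ISWI remodelling ATPase, rose from 34.3 to 89.0 CPM, and Rb1, the retinoblastoma protein, from 39.6 to 81.7 CPM. Ddb1, an adaptor of cullin-4 ligases, fell from 557 to 282 CPM, Ercc5, an endonuclease of excision repair, from 38.7 to 19.6 CPM, Wdr5, a subunit of histone H3 lysine 4 methyltransferases, from 359 to 183 CPM, and Bap1, a nuclear deubiquitinase, from 62.0 to 31.5 CPM. Sun1, which links the nuclear envelope to the cytoskeleton, fell from 183 to 92.9 CPM. Taf4b, a gonad-enriched subunit of TFIID, was at 1.67, 15.5 and 28.8 CPM in young and 18.6, 41.2 and 68.9 CPM in old oocytes, a rise of 1.81 with adjusted p = 0.00185.

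Of the falls named, that of Srebf1 (chromosome 11, 60199089-60222581), a transcription factor of lipid synthesis genes, held best. Young oocytes held 1.02, 72.7 and 224 CPM and old oocytes 8.98, 23.2 and 38.7 CPM. The lowest young value is again the oocyte that stood apart, and of the other 14 young oocytes 2 (32.6 and 37.4 CPM) lay within the old range. Srebf1 fell by 2.07 ± 0.285 on the log2 scale, adjusted p = 0.000709. Acly, which makes cytosolic acetyl-CoA for lipid synthesis, fell from 42.8 to 21.6 CPM.

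The most abundant of the falling genes named was Slc45a3, a transporter gene, with 660, 3244 and 6127 CPM in young and 842, 1291 and 2177 CPM in old oocytes (adjusted p = 0.0168). Dtx2, a ubiquitin ligase of the deltex family, fell from 869 to 365 CPM. Among signalling genes, Spry4, an inhibitor of receptor tyrosine kinase signalling, fell without overlap of the oocytes, from 622, 864 and 1652 CPM to 294, 428 and 610 CPM (adjusted p = 0.0329). Sufu, the inhibitor of Hedgehog signalling, fell from 80.4 to 34.6 CPM, and Gli3, a transcription factor of that pathway, rose from 19.8 to 71.0 CPM with wide scatter (0 to 159 CPM in old oocytes). Aph1c, a gamma-secretase subunit, fell from 36.0 to 8.36 CPM (adjusted p = 0.0125). Of the LRRC8 subunits of volume-regulated anion channels, Lrrc8e fell from 45.3 to 17.8 CPM, and Lrrc8b rose from 146 to 259 CPM without overlap of the oocytes. Vcp, the ATPase that extracts ubiquitylated proteins, fell from 60.9 to 31.6 CPM, Myo1c, a membrane-bound myosin, from 130 to 59.2 CPM, and Tbk1, a kinase of innate immunity and autophagy, from 57.1 to 30.2 CPM.

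Besides Spry4, 5 falls without overlap were named by rule. Patz1, a zinc finger repressor, was at 83.3, 107 and 136 CPM in young and 38.1, 44.2 and 68.9 CPM in old oocytes (adjusted p = 0.0491). Fpgs, which traps folates in the cell, fell from 646 to 356 CPM, and Gpatch1, of the spliceosome, from 85.0 to 43.9 CPM. Mir8093 fell from 110 to 53.8 CPM, but it lies inside an exon of Fpgs on the same strand, so its reads cannot be told apart from those of Fpgs. Ankrd26 was at 76.4 and 42.3 CPM and did not pass the set test (adjusted p = 0.06).

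Among the genes named, the set call held without each of the 5 sets in turn for Rnf187, Lamp1, Grtp1, Kctd5 and Srebf1. Every other named gene that passed lost its call without at least 1 set, in most cases the first young set, and fits without a young set leave 1 young set whose spread is assumed to be that of the other groups. For the named genes that passed, the sign of the change was the same in every alternative of the fit of sets.

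Correlations from oocyte to oocyte were computed within each age. Over the 15 old oocytes the 45 pairs among the 10 largest rises by size had a median correlation of log2 CPM of 0.824, with a range of -0.102 to 0.998. In the 15 young oocytes the median was 0.233. Correlations with Lamp1 in old oocytes were 0.967 for Akirin2, 0.965 for Rac1, 0.962 for Zfand5, 0.914 for Clptm1l, 0.906 for Noct and 0.876 for Parp12, and lower for Rnf187 (0.726) and Kctd5 (0.67). In young oocytes they were 0.806 for Clptm1l, 0.78 for Noct, 0.745 for Zfand5, 0.461 for Akirin2, 0.277 for Rac1, 0.227 for Rnf187, 0.179 for Parp12 and -0.369 for Kctd5. The old oocytes low in these genes came from every set. Lamp1 was at 39.8 and 66.1 CPM in 2 oocytes of the first old set, 115 CPM in 1 of the second and 42.5 CPM in 1 of the third, and Rac1 was at 102, 83.1, 141 and 86.1 CPM in the same 4 oocytes. The 10 largest falls showed a median pair correlation of 0.131 in old and 0.233 in young oocytes. The genes were chosen for their difference between the groups, the points share libraries and sets, and the correlations are descriptions.

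Wild-type oocytes of the same ages share no library with the knockout comparison. Of the 140 genes higher by size in old knockout oocytes, 110 (78.6%) also had a positive log2 ratio in wild type, against 49.3% of all 7292 genes, and 22 were called higher there, where 3.04% of 7335 genes were called higher. Of the 104 lower genes, 80 (76.9%) were below zero in wild type, against 50.7% of all genes, and 17 were called lower, where 4.25% of genes were. Opposite calls in wild type numbered 6 and 4. Of the 156 genes that rose in knockout oocytes over the sets, 48 also rose in wild type, where 6.62% of 19706 genes did, and of the 162 that fell, 55 fell in wild type, where 4.88% did. Both changes come from the same fit, with a common spread for each gene, so a gene of small spread is more easily called in both. These shares are therefore descriptions and no independent repeat. The wild-type ratios were smaller, with a median log2 ratio of 0.493 for the rises (1.41 in knockout) and -0.495 for the falls (-1.19 in knockout). The choice of genes by their knockout change makes the knockout ratios the larger ones, so this gap is no test of genotype. Myo10 was close in both genotypes, at 2.8 and 23.3 CPM in young and old wild type, as was Aph1c at 87.0 and 17.0 CPM.

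**Figure D2:**
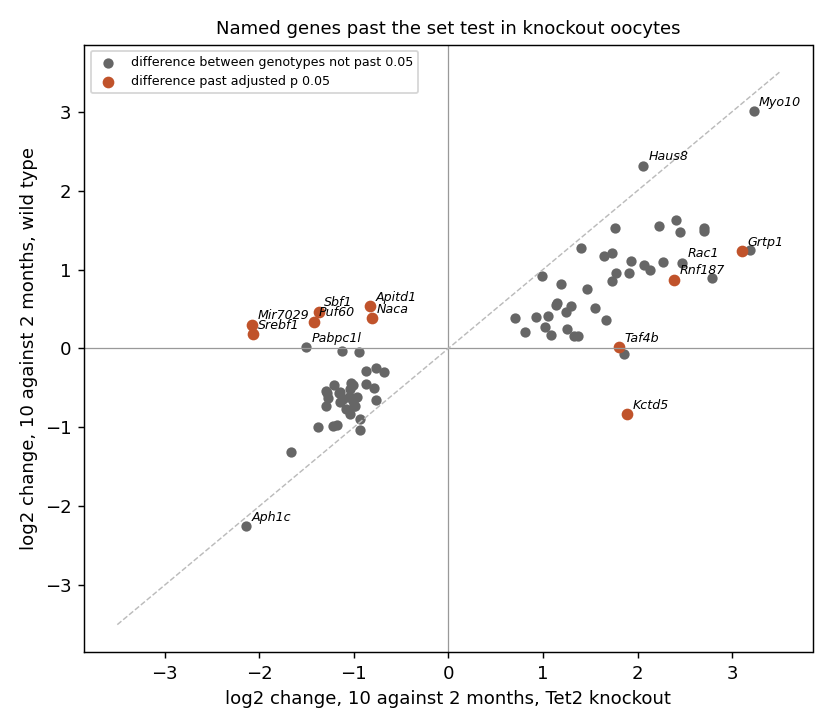
Log2 change from 2 to 10 months in knockout (horizontal) and wild-type oocytes (vertical) for the 86 named genes that passed the set test in knockout oocytes; each point is a gene, and the dashed line marks equal change. The sign is the same in both genotypes for 77 genes, and 10 genes are coloured because the difference between genotypes passed.

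The genotype difference of the age change was tested directly. Over the 9 sums it called 0 of 22163 genes, with 1791 (8.08%) at an unadjusted p under 0.05 and 142 called by DESeq2. Over the 26 sets it called 301 of 19706 genes (1.53%), 138 with the higher change in knockout (0.7%) and 163 with the lower (0.827%). Without the young oocyte that stood apart these were 181 and 149, and without the 4 leukocyte-marked oocytes 187 and 219. The fourth young wild-type set of this fit is a single oocyte. Kctd5 went in opposite directions, from 102 to 407 CPM in knockout and from 395 to 208 CPM in wild type, a difference of 2.72 on the log2 scale with adjusted p = 0.000597. Srebf1 fell from 92.5 to 22.3 CPM in knockout and was at 31.6 and 34.6 CPM in wild type (difference -2.25, adjusted p = 0.0033). Taf4b was at 43.8 and 42.5 CPM in wild type, so that the young knockout sum of 13.1 CPM was the low value of the 4 (difference 1.79, adjusted p = 0.0108). Rnf187 rose in both genotypes, from 39.3 to 67.2 CPM in wild type, and its changes differed (1.51, adjusted p = 0.0203). For Lamp1, at 83.8 and 210 CPM in wild type, the difference of 1.94 gave adjusted p = 0.052. The young knockout sums of Kctd5, Taf4b, Rnf187 and Lamp1 were below the young wild-type sums, and that of Srebf1 was above it.

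The lowest p-values of the genotype difference over the 9 sums belong to genes that did not pass in knockout oocytes. Dph6 (chromosome 2, 114516416-114654964), a gene of diphthamide synthesis, was at 459 and 598 CPM in young and old knockout oocytes but at 8.58 and 472 CPM in wild type. Mfap1b (chromosome 2, 121460235-121474067), of the spliceosome, was at 49.8 and 40.6 CPM in knockout and 7.63 and 78.2 CPM in wild type. Entpd1, an ecto-nucleotidase, was at 228 and 238 CPM in knockout and 15.7 and 187 CPM in wild type, and Trav7-6, a T cell receptor segment, at 34.8 and 26.4 CPM against 34.4 and 1.95 CPM. Dph6 and Mfap1b also passed over the sets (adjusted p = 1.77e-09 and 1e-08), and Entpd1 and Trav7-6 did not (0.449 and 0.33). The low values of Dph6, Mfap1b and Entpd1 stood in the young wild-type group, whose genotype tag contradicts its titles.

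Knockout oocytes of 6 months and those of 10 months with resveratrol were compared by value only, since the comparisons share the young or the old control group. At 6 months Kctd5 was at 414 CPM and Zfand5 at 517 CPM, as high as at 10 months (407 and 512 CPM), and Srebf1 was at 15.6 CPM, below its 10-month level of 22.3 CPM. Lamp1 (219 CPM), Rnf187 (43.7 CPM), Myo10 (30.9 CPM) and Haus8 (13.8 CPM) lay between their young and old sums. With resveratrol the 10-month sums were 269 CPM for Lamp1, 53.1 for Rnf187, 356 for Kctd5, 50.8 for Myo10, 907 for Parp12 and 667 for Rac1, each above the young sum. Aph1c was at 8.91 CPM (8.36 with solvent), Srebf1 at 21.8 CPM (22.3) and Tob2 at 72.3 CPM (75.5).

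**Figure D3:**
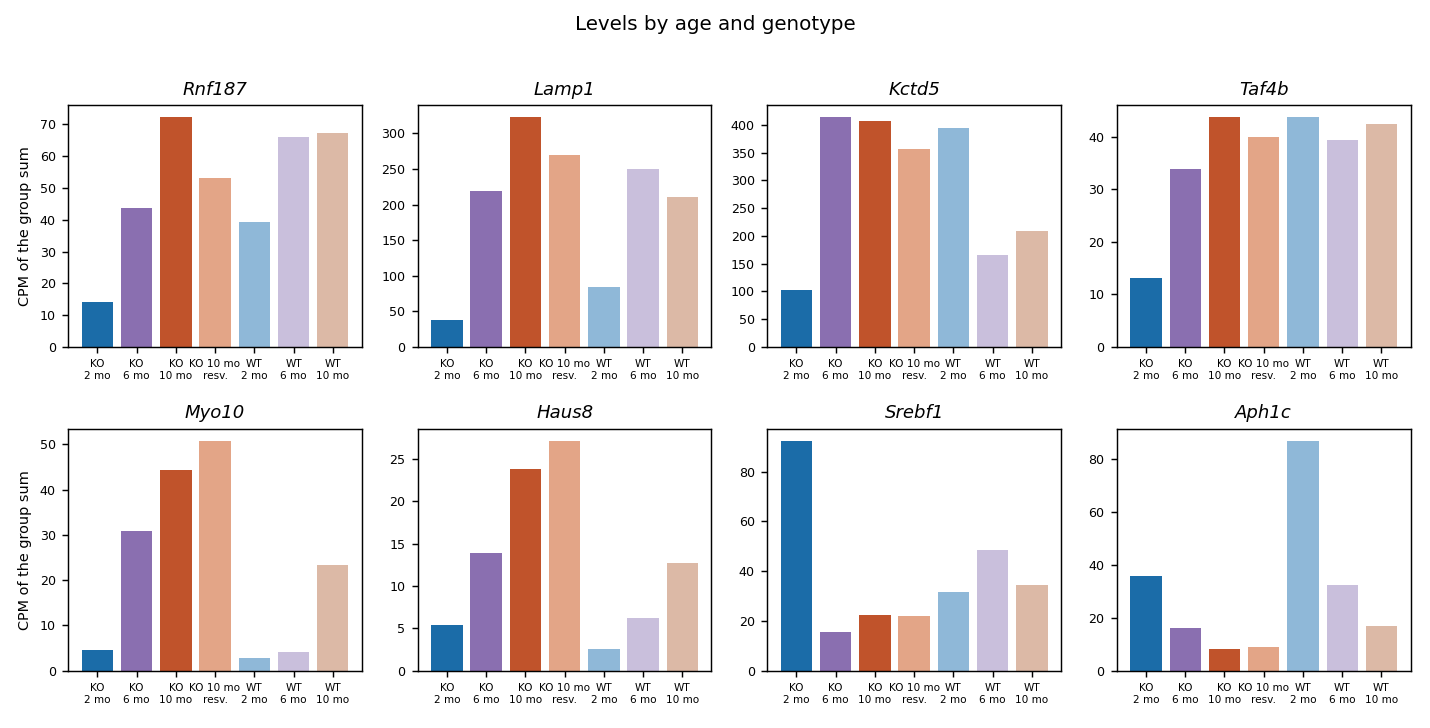
CPM of the summed oocytes of 7 groups for 8 genes: knockout at 2, 6 and 10 months with solvent and 10 months with resveratrol, and wild type at 2, 6 and 10 months. Each bar is the sum of a group, with no error because no animal is named; Myo10 and Haus8 are higher and Aph1c is lower at 10 than at 2 months in both genotypes, while Kctd5, Taf4b and Srebf1 differ between the young groups (102 and 395, 13.1 and 43.8, 92.5 and 31.6 CPM).

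Over 25 gene lists the members mostly lay near the background, whose median log2 ratio was 0.033 over 7292 genes. Each list median covers only the members at 10 CPM or more, often fewer than the number tested that is printed beside it. For example, these were 12 methylation genes, 4 sirtuins, 35 oxidative phosphorylation genes, 31 cytosolic ribosomal proteins, 9 histones and 4 interferon genes. No member passed the set test in the lists of oocyte secreted factors and zona pellucida proteins (0 of 14 tested, median 0.272), the Obox and Oog families (0 of 28, -0.0146), cohesin (0 of 25, -0.171), spindle and kinetochore (0 of 48, -0.106), DNA methylation and Tet enzymes (0 of 26, -0.0237), histone methylation and acetylation (0 of 47, 0.223) or sirtuins (0 of 7, -0.118). The same holds for nuclear-encoded oxidative phosphorylation (0 of 76, 0.0995), cytosolic ribosomal proteins (0 of 75, -0.0859), heat shock chaperones (0 of 34, -0.066), mitochondrial dynamics (0 of 28, 0.0754) and histones (0 of 23, 0.0803). In cohesin the largest ratios were Mau2 (30.5 to 17.6 CPM), a loader subunit, and Espl1 (92.1 to 59.0 CPM), the separase, with adjusted p = 0.204 and 0.0916. Among methylation genes Dnmt3l was at 78.9 and 112 CPM and Dnmt3b at 28.1 and 20.2 CPM. Sirt1, the deacetylase often named as a resveratrol target, was at 9.05 and 11.6 CPM.

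Lists with calls held 1 to 4 of them. Maternal mRNA storage and decay had 4 of 49 (Cnot6 and Zar1 higher, Tob2 and Pabpc1l lower, median 0.0624), and the subcortical maternal complex and maternal-effect list had Zar1 alone (1 of 28, 0.0395). Meiotic maturation had Ppp2ca, the catalytic subunit of phosphatase 2A, higher (3.14 to 10.1 CPM) and Cdc20, the activator of the anaphase-promoting complex, lower (374 to 220 CPM), 2 of 43 with a median of 0.066. The unfolded protein response had 2 falls of 28 (median -0.0606). They were Eif2ak4, a kinase of eIF2 alpha (86 to 51.8 CPM), and Ppp1r15b, a subunit of its phosphatase (34.3 to 15.5 CPM). In the Bcl2 family 2 of 26 fell (median -0.079), the anti-apoptotic Bcl2l1 (102 to 60.3 CPM) and the pro-apoptotic Bcl2l11 (19.3 to 12.7 CPM). Bcl2l1 lost its call without the young oocyte that stood apart (adjusted p = 0.0881), in which it was at 257 CPM, and Bcl2l11 lost its call without the 4 leukocyte-marked oocytes (adjusted p = 0.0829). The proteasome list had Psme3 (1 of 39, median -0.12), the redox list Gclm (1 of 37, 0.129), double-strand break repair Topbp1 (1 of 39, -0.104), senescence Rb1 (1 of 12, 0.648 over 2 genes at 10 CPM), RNA polymerase II machinery Taf4b (1 of 29, 0.0901), cholesterol synthesis Srebf1 (1 of 28, 0.0125), interferon response Stat2 (1 of 18, 0.28; lower) and mitochondrial ribosomal proteins Mrpl9 (1 of 76, -0.109; lower). These shares stand beside 1.61% of all genes called in either direction.

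List medians were also set beside those of wild type, with no test. Both medians cover the members at 10 CPM or more in the knockout sums. Cytosolic ribosomal proteins had a median log2 ratio of 0.414 in wild type and -0.0859 in knockout, oxidative phosphorylation 0.392 and 0.0995, proteasome subunits 0.315 and -0.12, and mitochondrial ribosomal proteins 0.252 and -0.109, beside -0.00818 and 0.033 over all genes. Of single members, the genotype difference passed over the sets for 6 of 76 mitochondrial ribosomal proteins, 2 of 76 oxidative phosphorylation genes 0 of 75 cytosolic ribosomal proteins and 0 of 39 proteasome subunits, against 1.53% of all genes.

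The 3′ untranslated regions of the genes that moved differed in base composition. The principal protein-coding transcript of each gene (GENCODE vM21, GRCm38) was used where its region had 100 bases or more. The median GC content was 39.3% for genes that rose (112 of 125 at 10 CPM or more), 48.2% for genes that fell (108 of 129) and 42.4% for all genes at 10 CPM or more (5951 of 7292). Over all genes in 4 equal bins of that GC content, from low to high, the median log2 ratio was 0.141, 0.0692, -0.0365 and -0.113 in knockout and 0.041, -0.045, -0.0383 and -0.0145 in wild type. Genes that rose and fell in wild type had medians of 41.2% and 43.5%. A cytoplasmic polyadenylation element, TTTTAT or TTTTAAT on the sense strand, lay in the last 100 bases of 25% of genes that rose, 21.3% of those that fell and 23.8% of all. The part of GC content in the changes was not tested.

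Some of the largest ratios by size came with wide differences between sets of the same age. Btla, a lymphocyte receptor gene, had the largest rise by rule (0.705 to 11.2 CPM), but its old sets were at 2.43, 25 and 0.425 CPM and its young sets at 1.33 and 0.271 CPM. Galnt7, a glycosyltransferase gene, was at 0.217 and 33.3 CPM in the young sets and 0, 0.0758 and 0.303 CPM in the old ones. Gsto2, a glutathione transferase, was at 18 and 32.3 CPM in young and 16, 0.341 and 0.0607 CPM in old sets, and Slc25a17, a peroxisomal transporter, at 143 and 79.1 against 87.1, 7.92 and 5.88 CPM. None of the 4 passed the set test (adjusted p = 0.222, 0.0628, 0.275 and 0.408). Neil3, a glycosylase of oxidised bases, was called higher by size (171 to 397 CPM), with young sets at 372 and 29.7 CPM. Without the second young set the call was lost. Of the 140 genes higher by size, the sets did not overlap in 127 and the second old set was the highest in 85. Sets that do not overlap are common, with 21.5% of all 7292 genes higher and 21.6% lower in every old set than in any young one.

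**Figure D4:**
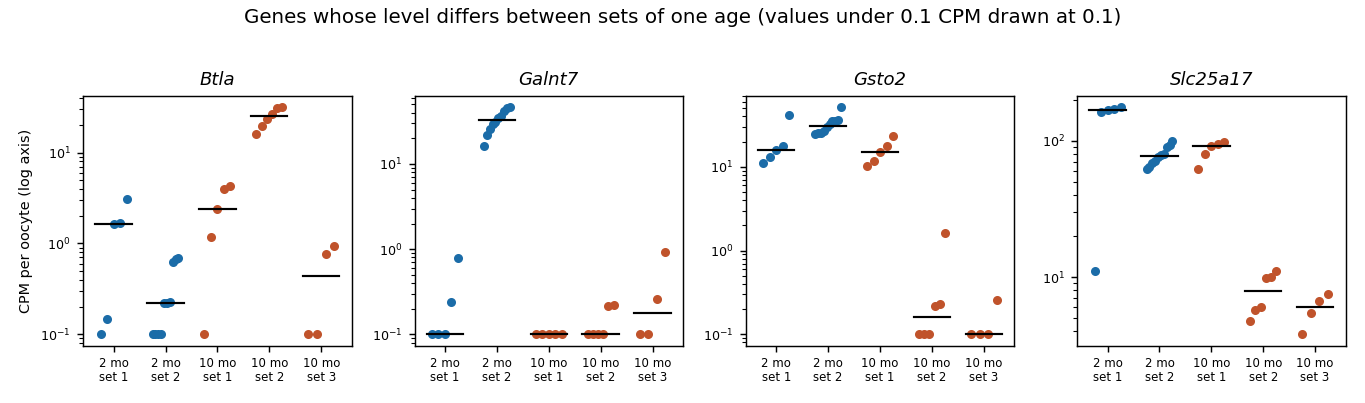
CPM of Btla, Galnt7, Gsto2 and Slc25a17 in each oocyte by numbered set, on a log axis with values under 0.1 drawn at 0.1. The high oocytes of Btla come mostly from the second old set, those of Galnt7 from the second young set, and in Gsto2 and Slc25a17 the first old set overlaps the young sets while the other old sets lie below.

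Some transcripts were high in a few old oocytes, and the cell they came from was not tested. Tmsb4x, thymosin beta 4, had the lowest p among higher genes over the 9 sums and was at 0.449 CPM in young and 11.5 CPM in old sums, with an old median of 0.455 and a highest value of 49.4 CPM. Apoe, another gene named by that rule, was at 4.22 and 16 CPM, with 92.8, 40.0 and 36.1 CPM in 3 of the 4 old oocytes with the highest leukocyte marker sums. C1qa and Tyrobp had no count in young oocytes and 2.8 and 2.22 CPM in the old sum. Neither Tmsb4x nor Apoe passed the set test (adjusted p = 0.0697 and 0.06), and Apoe was no longer called by size without those 4 oocytes. Rnf187, Lamp1, Kctd5, Myo10, Parp12 and Srebf1 passed with and without those oocytes.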

How the data were processed

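The members, gene lists and tests were chosen with earlier results of these data known. The authors deposited whole-number read counts per gene for 53619 gene symbols, not normalized. The submitters' processing notes list mm10 as the genome and, as tools, featureCounts, HISAT2 2.1.0 and DESeq2. Their roles and the strand setting are not given in the sources used here. Of 13530 genes at 1 CPM or more, 10686 matched GENCODE vM21 (GRCm38), which gave positions.

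Counts of the oocytes of a group were summed, since cells are not replicates, and scaled by TMM (edgeR 4.0.16, R 4.3.3). The size measure added 0.5 counts to sums and 0.1 CPM to medians. Tests were edgeR's quasi-likelihood test after filterByExpr with a minimum count of 10, adjusted by Benjamini-Hochberg, at 0.05. The fit of 9 sums held a mean per age and genotype and 1 resveratrol effect common to 3 pairs of control and treated sums, and left out the old resveratrol knockouts. The fit of 26 sets held 10 group means with 16 residual degrees of freedom and was chosen after the column names were seen. DESeq2 1.42.0, other scalings, filters and left-out oocytes, sums and sets were alternatives. Both fits were tested on simulated data.

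Depth was 4297459 to 8775154 counts per oocyte. Genes were named by rule. It takes the Tet genes, the 10 largest changes each way by size, up to 6 each way whose oocytes do not overlap, the 3 lowest p each way, the 4 lowest p of the genotype difference and up to 3 members of each list. Numbered gene models are not named. Other genes, mainly those past the set test, were chosen after their values were seen, and not all genes taken by the rule are described. No sequence was read from the libraries.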

Additional observations from a re-analysis of the deposited data

Results flagged for a closer look

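The change from 2 to 10 months differed between knockout and wild-type oocytes for 301 of 19706 genes by edgeR's test of the difference over the 26 sets, and for 0 over the 9 sums. Differences below are knockout minus wild type on the log2 scale, for the named genes that passed over the sets. The largest belong to genes with a low group. Galnt7 had -11.2 (adjusted p = 0.023), Dph6 -5.56 (1.77e-09) and Mfap1b -3.63 (1e-08). Among genes that rose in knockout, Kctd5 had 2.72 (0.000597), Grtp1 1.87 (0.0468), Taf4b 1.79 (0.0108) and Rnf187 1.51 (0.0203). Apoe had 2.78 (0.0365), with its high values in old knockout oocytes that also had the highest leukocyte marker sums, and did not pass without them (1.28, adjusted p = 0.295). Among genes that fell in knockout, Mir7029 had -2.38 (0.0471), Srebf1 -2.25 (0.0033), Sbf1 -1.84 (0.0384), Puf60 -1.76 (0.04), Apitd1 -1.36 (0.00492) and Naca -1.2 (0.0182). Mir7029 shares 7 exon bases with Gcn1l1 on the same strand, and which transcript its reads came from was not tested. Without the young knockout oocyte that stood apart, where Apitd1 was at 325 CPM and Naca at 258 CPM, neither passed for the difference (adjusted p = 0.0575 and 0.158) or for the knockout fall (0.197 and 0.314). H2afz, a histone variant, had -2.15 (0.0113), with a change of -0.505 in knockout and 1.64 in wild type. Over the 9 sums the unadjusted p of these genes lay between 3.73e-06 (Dph6) and 0.441 (Grtp1).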

How the results depend on the processing

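Counts by size (140 higher, 104 lower) were 681 and 824 without the CPM minimum and 54 and 30 at a minimum of 50 CPM, and 166 genes were lower by the median oocyte. Leaving out 1 oocyte or 1 set at a time gave 115 to 307 higher and 78 to 168 lower, with the extremes from left-out sets. Without the first old set the counts were 249 and 157, and without the second young set 307 and 168. The fit of 9 sums (0 genes) gave 190 without the filter, 172 by DESeq2, 1 in an additive model and 318 over the sets. Leaving out 1 sum gave 0 to 229, with 175 and 229 without the 6-month wild-type control or resveratrol sum. Its genotype difference (0 genes) gave 268 without the filter, 14 with all 10 sums, 142 by DESeq2, 301 over the sets and 0 to 284 without 1 sum (5 and 11 without the 6-month knockout control or resveratrol sum, 253 and 284 without the wild-type ones). The fit of sets (156 higher, 162 lower) gave 616 and 449 without the filter, 552 and 382 by DESeq2, 1 and 0 with the 5 knockout sets alone and 244 lower without the oocyte that stood apart. Leaving out 1 set gave 18 to 197 higher and 6 to 164 lower, with 18 and 6 without the first young set, 31 and 15 without the second old set, 60 and 37 without the third old set, and 63 lower without the second young set. Of the 318 genes, 10 were called again without the first young set, 41 without the second old set, 88 without the third old set, 123 without the second young set, 254 without the first old set, 315 by DESeq2 and 298 with RLE factors. Its genotype difference (138 higher, 163 lower) gave 448 and 508 without the filter and 523 and 315 by DESeq2. Without 1 of the 5 knockout sets it gave 91 to 121 higher and 95 to 154 lower. No wild-type set was left out in turn, so how far this difference depends on single wild-type sets was not tested. Where fewer sets or genes entered, power differs by construction; otherwise the cause was not tested. Among the named genes no called change turned direction, and the other called genes were not checked for this. No paired analysis was possible because the columns do not carry the replicate numbers of the titles, and nothing states that a set number is shared between groups. Depth was even but for the first young set, and genes under 10 CPM were not named on size.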
